A study of Mus musculus with 2 samples.

Results

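Crypt cells in G2 and mitosis are the dividing cells of the intestinal epithelium that have copied their DNA and are preparing to divide or are dividing. They were chosen here by their transcripts alone. Of the 2335 cells the authors kept, 1635 had at least 5000 unique transcript counts (UMIs) and fewer than 20 UMIs of Chga, which encodes chromogranin A, a protein of endocrine granules. Each of these cells was ranked by the share of its UMIs in 6 replication genes (Cdt1, Ung, Mcm2, Mcm3, Mcm4, Mcm6), in 5 histone genes (Hist1h1a, Hist1h1b, Hist1h2ae, Hist1h2ap, Hist1h3c) and in 6 mitotic genes (Cenpf, Ube2c, Ccnb1, Cdkn3, Cdc20, Cenpa). A cell was taken when its mitotic rank was at least 0.80, as a fraction of these cells, and above its other ranks. That gave 231 cells, 14.1% of the 1635 (exact 95% Clopper-Pearson interval 12.5 to 15.9%), called G2/M cells below, and the other 1404 are called the rest.

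The labels give the cells as coming from small intestinal crypts of 1 mouse of genotype ChgaCreER-tdTomato::Rosa26LSL-eYFP. Its Chga locus drives CreER, a Cre recombinase active only with tamoxifen, together with tdTomato, and its Rosa26 reporter makes eYFP once Cre has acted in a cell or an ancestor of it. It received 1 mg of tamoxifen on each of 5 days. All groups share this genotype and treatment, so no cell is from an untreated or Cre-negative control. Sorted eYFP+ cells and bulk epithelial cells were marked with hashtag antibodies (tags 1 and 2, and tags 3 and 4), and the sources used here do not say which tags mark which sort. A single droplet expression library, with 1 hashtag library, holds all cells. With no replicate there are no p-values, and all intervals cover counting error only.

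In the crypt, stem cells at the base and their progeny divide rapidly, pass through DNA replication, G2 and mitosis, and then leave the cycle as absorptive or secretory cells. Entry into mitosis is driven by the kinase Cdk1 with A- and B-type cyclins, and exit by the anaphase-promoting complex (APC/C), a ubiquitin ligase that destroys those cyclins. Transcripts of the mitotic machinery accumulate late in the cycle, and many of their genes are known to carry a CHR element and CCAAT boxes just upstream of the start, bound by the MuvB complex with B-Myb or Foxm1 and by NF-Y.

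The promoter stretches of 6 genes on which the selection and the results turn are given to show where those motifs do and do not occur. Each is the 150 bases before the RefSeq gene start, 5′ to 3′ on the gene's strand, from build GRCm38.p6. Capitals mark a CHR (TTTGAA or TTCGAA, on either strand) or a CCAAT box (CCAAT, on either strand), and the motifs did not overlap in these stretches. Ube2c (the ubiquitin-conjugating enzyme of the APC/C), Cdc20 (its mitotic activator) and Ccnb1 (cyclin B1) were used to choose the cells. Ccnb2 (cyclin B2), Cdk1 and Nusap1 (a microtubule-binding protein of the spindle) were not.
Ube2c, chr2:164769779-164769928, plus strand: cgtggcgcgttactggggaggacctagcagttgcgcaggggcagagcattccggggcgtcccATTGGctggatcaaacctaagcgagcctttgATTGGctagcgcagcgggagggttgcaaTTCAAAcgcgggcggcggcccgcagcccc
Cdc20, chr4:118437344-118437493, minus strand: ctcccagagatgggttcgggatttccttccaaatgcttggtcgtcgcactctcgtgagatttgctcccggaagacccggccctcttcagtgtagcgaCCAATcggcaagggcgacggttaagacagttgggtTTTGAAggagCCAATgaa
Ccnb1, chr13:100786487-100786636, minus strand: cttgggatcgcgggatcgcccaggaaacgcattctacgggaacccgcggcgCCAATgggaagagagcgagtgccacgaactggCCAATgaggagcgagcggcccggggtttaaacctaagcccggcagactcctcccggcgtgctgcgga
Ccnb2, chr9:70421555-70421704, minus strand: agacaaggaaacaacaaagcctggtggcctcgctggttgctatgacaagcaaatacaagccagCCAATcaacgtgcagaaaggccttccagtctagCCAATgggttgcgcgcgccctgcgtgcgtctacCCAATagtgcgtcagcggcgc
Cdk1, chr10:69352913-69353062, minus strand: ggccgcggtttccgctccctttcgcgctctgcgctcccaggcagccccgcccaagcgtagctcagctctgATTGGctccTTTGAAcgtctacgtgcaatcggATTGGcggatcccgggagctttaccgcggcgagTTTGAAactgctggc
Nusap1, chr2:119618148-119618297, plus strand: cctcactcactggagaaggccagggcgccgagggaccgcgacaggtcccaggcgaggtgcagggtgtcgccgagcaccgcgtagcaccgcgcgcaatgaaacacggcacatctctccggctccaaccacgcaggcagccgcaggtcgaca

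Cdc20 has a CCAAT box, a CHR and a second CCAAT box close to its start, with first bases at -53, -18 and -8 from the start. Ube2c has its CHR at -29 downstream of CCAAT boxes at -88 and -57, and Cdk1 has CHR letters at -71 and -15. Ccnb2 holds 3 CCAAT boxes in the printed stretch and no CHR letters there. The only CHR letters found for it lie upstream of that stretch and of the 3 boxes, at -167. Bases after the start were not searched, so whether these letters are the CHR of Ccnb2 was not tested. Nusap1 holds neither motif. Over the 250 bases before the start, all 6 mitotic genes used in the choice held a CCAAT box and 3 held a CHR. Among the 9053 genes measured here that match the RefSeq table, 41.0% held a CCAAT box and 14.7% a CHR. Of the 15 genes highest in G2/M cells over the rest, named below, 13 matched, 11 of them with a CCAAT box and 3 with a CHR. Of the 15 lowest, 13 matched, 4 of them with a CCAAT box and 5 with a CHR. These are matches of letters in a window, not measured binding.

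The values that chose the G2/M cells are a description of the choice. Their 6 mitotic genes together made up 11.1 to 52.3 of every 10000 UMIs of a cell, with a median of 24.6, against 0 to 28.5 per 10000 in the rest, with a median of 0.847. A rank of 0.80 or more was reached by 328 cells, and 97 of them were left out because their histone rank was not below their mitotic rank. The 27 G2/M cells nearest the threshold, with ranks of 0.80 to 0.85, had a median mitotic share of 13.0 per 10000, and the 81 cells just outside, with ranks of 0.75 to 0.80, had 8.97. The threshold therefore runs through a continuous range. Histone transcripts had not gone from all G2/M cells: 163 had a histone rank of at least 0.50 and 68 had a lower one.

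**Figure D1:**
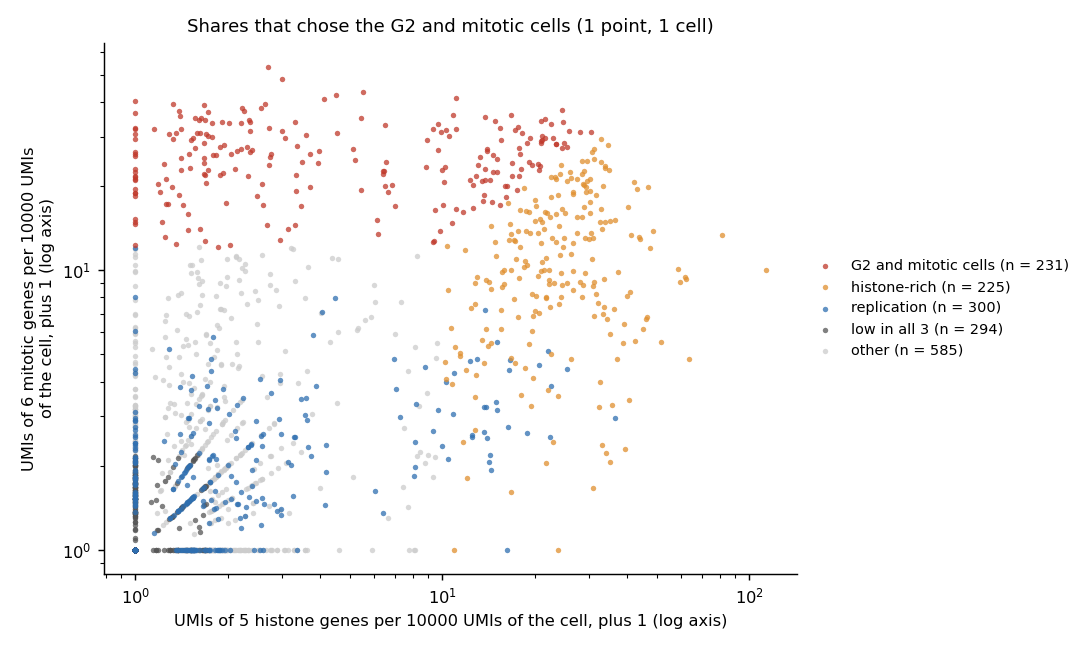
Each point is 1 of the 1635 cells, with the share of its UMIs in the 5 histone genes on the x axis and in the 6 mitotic genes on the y axis (both per 10000 UMIs, plus 1, log axes). The 231 G2/M cells lie at the top, by choice, and their histone share, 0 to 29.6 per 10000, overlaps the 9.20 to 112 of the 225 histone-rich cells.

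The marker genes fixed for the label are given as a description. Cenpf, Ube2c, Ccnb1 and Cdc20 served in the choice, while Nek2 (a centrosome kinase) and Knstrn (a kinetochore and spindle adaptor) did not. Nek2 stood at 89.2 UMIs per 1000000 (CPM) in G2/M cells (95% Poisson interval 82.7 to 96.1), against 12.6 CPM in the rest (11.5 to 13.9), and 88.7% of G2/M cells and 18.7% of the rest had a UMI of it. Knstrn stood at 143 CPM in G2/M cells, against 32.7 CPM in the rest. Both were higher in G2/M cells, which describes the group and does not test its label. Both were also found in the histone-rich cells described below, where Nek2 was at 38.1 CPM and Knstrn at 60.7 CPM.

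For comparison, 3 other groups were taken from the same rankings: 225 histone-rich cells (histone rank at least 0.80 and highest), 300 replication cells (replication rank at least 0.80 and highest) and 294 cells low in all 3 (each rank under 0.50). The median UMI count of G2/M cells was above that of each. It was 32122 UMIs, against 29290 in histone-rich cells, 21787.5 in replication cells, 21045.5 in cells low in all 3 and 21641.5 in the rest, a ratio to the rest of 1.48. Genes per cell had a median of 5770 in G2/M cells and 4587 in the rest; with every cell thinned to 5000 UMIs the medians were 2031 in G2/M cells and 1956 in the rest. The depth of a cell cannot be told apart here from its RNA content, and the values below are shares of each group's UMIs. Mitochondrial genes took a median of 7.01% of UMIs in G2/M cells and 7.50% in the rest.

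Before the results, the cells were checked for Xist and Y-linked transcripts, since the labels name 1 mouse. Y-linked UMIs with at most 2 Xist UMIs were found in 157 of the 1635 cells, 155 of them carrying tags 1 and 2, and 19 of these 157 were G2/M cells. Another 1413 cells had 3 or more Xist UMIs without a Y-linked UMI, and 198 of them were G2/M cells. Of 29 cells with both kinds of UMI, 11 were G2/M cells, and 36 cells had neither. G2/M cells were thus 37.9% of the cells with both (20.7 to 57.7), against 12.1% of the 157 cells and 14.0% of the 1413. Median depth was 37482 UMIs in the cells with both, 26055 UMIs in the 157 and 22900 UMIs in the 1413. Whether the cells with both are droplets with more than 1 cell was not tested. Cells with Y-linked transcripts and little Xist beside cells with Xist and no Y-linked transcript go against a single mouse as labelled. Both kinds contribute to the group, and the shares by tag, the share with YFP and the named genes by tag are also given within the cells with Xist and no Y-linked UMI. No cell was removed as a doublet. Lymphocyte markers reached 3 UMIs in 7 G2/M cells and 36 of the rest.

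Against the rest, the genes that stood out were those of the spindle, the kinetochore and mitotic entry. Aspm, a spindle pole protein, had the largest ratio at 107 CPM in G2/M cells (100 to 115), against 13.5 CPM in the rest (12.3 to 14.8), a log2 ratio of 2.32 with 10 CPM added to both, as for all ratios below. Next came Hmmr (a spindle-associated motility receptor) at 185 CPM in G2/M cells and 32.6 CPM in the rest, Nusap1 at 234 CPM in G2/M cells and 44.3 CPM in the rest, and Nek2 with a log2 ratio of 2.13. Of 11623 genes with at least 50 UMIs in both sums together, and without the 17 genes of the choice, 243 were higher in G2/M cells (2.09% of those measured) and 196 were lower (1.69%), where higher and lower mean past 1.5-fold with the Poisson intervals apart. Because the cells were picked on the same transcripts, these counts describe the group and test nothing. The median over all measured genes was 0.03.

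Most of the next genes in the order have known parts in the same events. Ccnb2 stood at 231 CPM in G2/M cells and 46.0 CPM in the rest (log2 2.10), and Ccna2, cyclin A2, at 179 CPM in G2/M cells and 38.8 CPM in the rest (1.96). Cenpe, the kinetochore kinesin, reached 255 CPM in G2/M cells and 52.9 CPM in the rest. Plk1, the polo-like kinase of mitotic entry, had 109 CPM in G2/M cells and 19.9 CPM in the rest, and Tpx2, which activates Aurora A at the spindle, had 163 CPM in G2/M cells and 33.8 CPM in the rest. Arl6ip1, an endoplasmic reticulum shaping protein, was the most abundant of the 15 at 902 CPM in G2/M cells, against 222 CPM in the rest. Ckap2 (a microtubule-associated protein), Aurka (Aurora A kinase), Cdc25b (a phosphatase that activates Cdk1), Prc1 (the midzone microtubule bundler) and Sapcd2 (a regulator of spindle orientation) completed the 15, with log2 ratios of 1.92 to 1.87. A handful of cells did not carry these values: without the 5 cells with most UMIs of each gene in each group, the ratios of these last 5 genes were 1.89, 1.91, 1.86, 1.89 and 1.88, and that of Aspm 2.32.

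**Figure D2:**
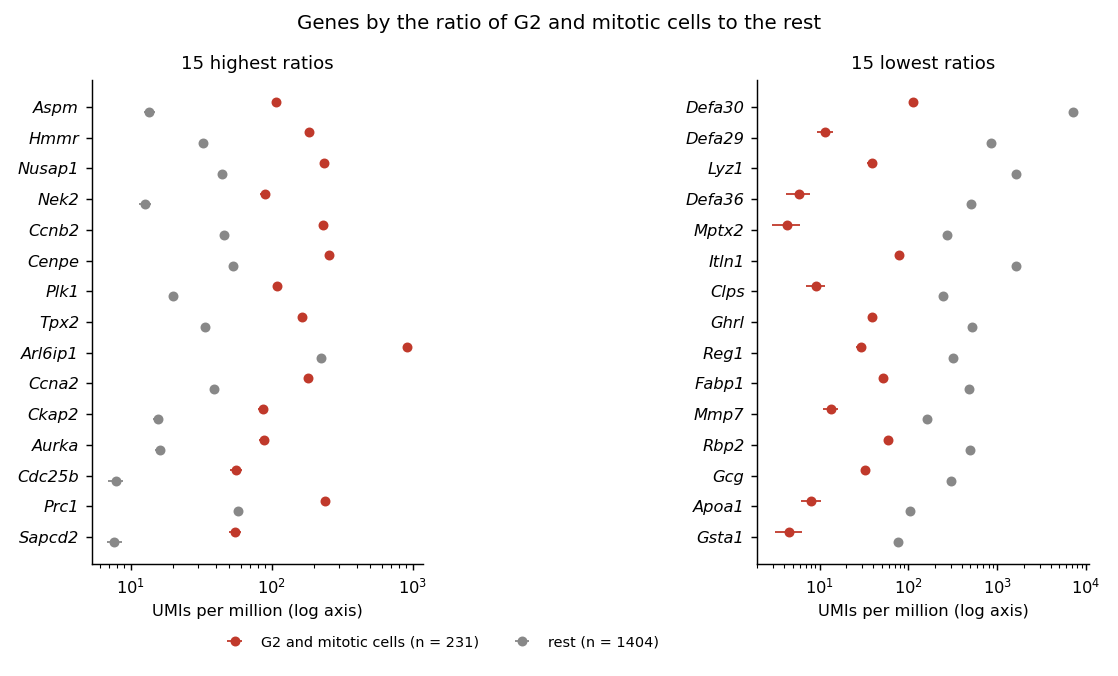
Points give UMIs per 1000000 (log axes) with exact 95% Poisson intervals in 231 G2/M cells (red) and 1404 cells of the rest (grey) for the 15 highest and 15 lowest ratios. G2/M cells sit to the right in the left panel (Aspm, 107 CPM against 13.5 CPM in the rest) and to the left in the right panel (Lyz1, 38.9 CPM against 1645 CPM in the rest).

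Cell by cell, these transcripts were common but not uniform. Aspm made up 0 to 6.999 of every 10000 UMIs in G2/M cells, with a median of 1.01, and 0 to 9.02 in the rest, with a median of 0, so single cells overlapped. Ccnb2 had a median of 2.26 per 10000 in G2/M cells and 0 in the rest. With each cell thinned to 5000 UMIs, Ccnb2 was found in 72.7% of G2/M cells and 17.2% of the rest, and in 6.80% of the cells low in all 3, whose low mitotic rank was part of their choice. Arl6ip1, by contrast, was found in 93.9% of G2/M cells and 60.04% of the rest after thinning, and differed in amount, with medians of 9.43 per 10000 in G2/M cells and 1.74 in the rest.

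Among 22 measured genes of mitotic entry (the cyclins, Cdk1 and its switches) outside the choice, 16 were higher in G2/M cells, none lower, and the median log2 ratio was 1.21. Cks2, a Cdk-binding subunit, was the most abundant at 443 CPM in G2/M cells, against 134 CPM in the rest. Cdk1 stood at 211 CPM in G2/M cells and 53.3 CPM in the rest, and Cdc25c, the phosphatase that releases Cdk1 at mitotic entry, at 29.7 CPM in G2/M cells and 4.07 CPM in the rest. Foxm1, a transcription factor of late cycle genes, passed the threshold at 21.2 CPM in G2/M cells and 9.66 CPM in the rest. Mybl2, which encodes B-Myb, went the other way without passing, at 6.72 CPM in G2/M cells and 10.1 CPM in the rest.

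The spindle list behaved alike: 31 of its 35 measured genes were higher, none lower, with a median of 1.54. It holds kinesins, tubulins and spindle proteins, and also Arl6ip1. Tubb4b, a beta-tubulin, reached 1045 CPM in G2/M cells, against 291 CPM in the rest, and Tubb5, another, 534 CPM in G2/M cells, against 271 CPM in the rest. Stmn1, which destabilises microtubules, was abundant in both, at 739.7 CPM in G2/M cells and 550.5 CPM in the rest, and did not pass. The motors Kif11, which separates spindle poles, and Kif20b and Kif23, which act in cytokinesis, had log2 ratios of 1.62, 1.70 and 1.67.

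Of the kinetochore, the protein platform on the centromere, 30 of 39 measured genes were higher and none lower, with a median of 0.78. Bub3 and Bub1b of the spindle checkpoint stood at 156 and 82.6 CPM in G2/M cells, against 54.7 and 21.97 CPM in the rest. Spc24, a subunit of the Ndc80 complex, was at 166 CPM in G2/M cells, against 71.1 CPM in the rest. Cenpo, of the constitutive centromere network, was the only one of the list with a ratio below 0, at 5.04 CPM in G2/M cells and 5.53 CPM in the rest. All 4 genes of the chromosomal passenger complex, the Aurora B kinase and its partners, were higher: Birc5 at 420 CPM in G2/M cells and 108 CPM in the rest, Cdca8 at 259.9 CPM in G2/M cells and 74.2 CPM in the rest. Incenp stood at 141 CPM in G2/M cells and 49.1 CPM in the rest, and Aurkb, the kinase, at 92.5 CPM in G2/M cells and 27.0 CPM in the rest.

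Few genes of the APC/C passed. Of 19 measured genes, 4 were higher and none lower, with a median of 0.23, and the 4 were partners and targets rather than core subunits: Ube2s (the chain-elongating enzyme) at 538 CPM in G2/M cells and 205 CPM in the rest, and Fzr1 (the G1 activator Cdh1) at 40.1 CPM in G2/M cells and 16.8 CPM in the rest. Pttg1 (securin) stood at 58.6 CPM in G2/M cells and 33.8 CPM in the rest, and Espl1 (separase) at 23.1 CPM in G2/M cells and 5.48 CPM in the rest. Core subunits such as Anapc11 (98.5 CPM in G2/M cells, 74.4 CPM in the rest) and Cdc27 (27.9 CPM in G2/M cells and 17.1 CPM in the rest) did not pass.

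Chromosome and nuclear structure genes divided. Of 22 condensin and chromosome genes 15 were higher, with a median of 0.84, among them Hmgb2 (a chromatin protein) at 1883 CPM in G2/M cells and 684 CPM in the rest. Top2a (DNA topoisomerase) stood at 578 CPM in G2/M cells and 223 CPM in the rest, and Mki67 (which coats mitotic chromosomes) at 607 CPM in G2/M cells and 222 CPM in the rest. Of 13 cohesin genes only Rad21, the subunit cut by separase, was higher, at 243 CPM in G2/M cells and 105 CPM in the rest, while Smc3, of the same ring, had 159 CPM in G2/M cells and 142 CPM in the rest. Nuclear envelope genes were higher in 5 of 16, with Lmnb1 (lamin B1) at 234 CPM in G2/M cells and 114 CPM in the rest. Cytokinesis genes were higher in 7 of 17, Anln (anillin) and Ect2 (the activator of RhoA) among them, and Rhoa itself was at 303 CPM in G2/M cells and 279 CPM in the rest. Centrosome genes were higher in 4 of 13, Plk4, the kinase of centriole duplication, among them with a log2 ratio of 0.89.

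Genes of the preceding stages were low or level. Of 38 measured genes of DNA replication and the G1/S transition, 14 were lower and none higher, with a median of -0.41. Pcna, the replication clamp, stood at 23.4 CPM in G2/M cells and 57.7 CPM in the rest, and Ccne1, cyclin E1, at 3.104 CPM in G2/M cells and 14.6 CPM in the rest. Of 26 histone genes outside the choice none passed in either direction, with a median of 0.10. Most replication-dependent histone transcripts lack the poly(A) tail that 3′ libraries capture, and near-identical copies share reads, so single histone genes are uncertain. Cdkn1a, the cell cycle inhibitor p21, was lower, at 49.1 CPM in G2/M cells and 83.5 CPM in the rest. Ribosomal protein genes (median 0.01, 0 of 80 passed) and oxidative phosphorylation genes (0.08, 1 of 81 lower) were level.

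**Figure D3:**
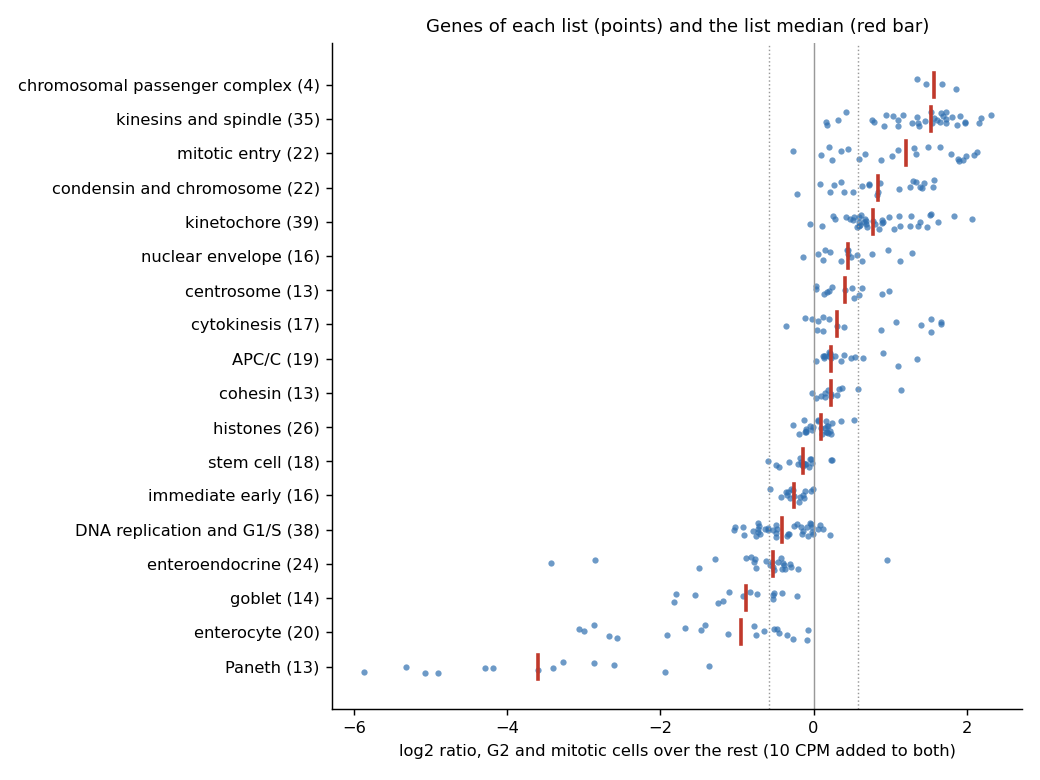
Each blue point is 1 measured gene of a list, placed by its log2 ratio of G2/M cells over the rest (10 CPM added), red bars are list medians, and dotted lines mark 1.5-fold. Lists run from the chromosomal passenger complex (median 1.57) to Paneth cell genes (median -3.61).

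In the summed counts, transcripts of differentiated cells were among the lower genes. All 13 Paneth cell genes were lower, with a median of -3.61: Lyz1, lysozyme of Paneth cell granules, had 38.9 CPM in G2/M cells and 1645 CPM in the rest, and the alpha-defensin Defa30 had 113 CPM in G2/M cells and 7204 CPM in the rest. Alpha-defensin genes are near-identical, so their single values are uncertain. The rest held 35 cells with over 5% of UMIs in Defa genes and the G2/M cells held 0. Without those 35 cells Clps, Defa29, Defa36, Itln1 and Mptx2 had log2 ratios of -0.40, -0.43, -0.32, -0.53 and -0.52 and no longer passed. Enterocyte genes were lower in 13 of 20 (median -0.95), with Fabp1, a fatty acid carrier, at 52.1 CPM in G2/M cells and 487 CPM in the rest. Rbp2, a retinol carrier, stood at 58.6 CPM in G2/M cells and 488 CPM in the rest, and Apoa1, an apolipoprotein, at 8.02 CPM in G2/M cells and 105 CPM in the rest. Goblet cell genes were lower in 9 of 14 (median -0.88) and enteroendocrine genes in 10 of 24 (median -0.54). Ghrl, the ghrelin gene, stood at 39.2 CPM in G2/M cells and 519.9 CPM in the rest. Its log2 ratio was -3.43 over all cells and -1.92 without the 5 highest cells of each group. Cell by cell, enterocyte genes together had a median of 17.3 per 10000 UMIs in G2/M cells and 17.2 in the rest. The highest cells reached 78.2 in G2/M cells and 1362 in the rest. The medians were 4.42 and 6.05 for Paneth genes and 2.31 and 2.64 for goblet genes, in the same order. Against histone-rich cells, 0 of 18 enterocyte and 0 of 10 Paneth genes passed. Of 14 goblet genes 3 were lower, and of 20 enteroendocrine genes 5 were higher and 2 lower.

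Stem cell genes stayed near the level of the rest. Of 18 measured, 1 was lower (Igfbp4, a binding protein of insulin-like growth factor), and the median was -0.14. Olfm4, a secreted crypt base protein, was at 3661 CPM in G2/M cells and 4589 CPM in the rest. At least 20 UMIs of it were found in 177 G2/M cells (76.6%, 70.6 to 81.9) and in 939 of the rest (66.9%, 64.3 to 69.3). That count was taken at unequal depth, with medians of 32122 UMIs in G2/M cells and 21641.5 UMIs in the rest. Thinned to 2000 UMIs, 82.7% of G2/M cells and 76.2% of the rest had at least 1 UMI of Olfm4. Lgr5, a Wnt pathway receptor that marks crypt base stem cells, was at 58.2 CPM in G2/M cells and 86.2 CPM in the rest, and Ascl2, a stem cell transcription factor, at 56.8 CPM in G2/M cells and 61.7 CPM in the rest, without passing. The G2/M cells therefore spanned crypt base markers from absent to high, with Olfm4 at 0 to 150 per 10000 UMIs and a median of 32.7, against a median of 40.6 in the rest.

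A few G2/M cells carried the transcripts of 1 mature type in quantity. At least 20 UMIs of a marker of goblet, hormone-producing, endocrine progenitor, Paneth or enterocyte cells were found in 19 G2/M cells (8.23%, 5.02 to 12.5) and in 286 of the rest (20.4%, 18.3 to 22.6). Muc2, the goblet mucin, reached that level in 10 G2/M cells and 84 of the rest, and a hormone gene (Gip, Sst, Cck, Gcg, Ghrl, Sct or Tac1) in 6 G2/M cells and 66 of the rest. Fabp1 did so in 2 G2/M cells and 117 of the rest, Neurog3, the endocrine progenitor factor, in 1 G2/M cell and 5 of the rest, and Lyz1 in 0 G2/M cells and 51 of the rest. For Lyz1 the count of 0 of 231 allows a share of up to 1.58%. Paneth cells were scored by Lyz1 alone. Another Paneth cell gene, the alpha-defensin Defa24, is not in the total of 19. It reached 20 UMIs in 15 G2/M cells (6.49%, 3.68 to 10.5) and in 146 of the rest (10.4%, 8.85 to 12.1). The highest G2/M cell had 584 UMIs of it. Low counts cannot be read this way: with cells thinned to 2000 UMIs, Defa24 was found in 37.2% of G2/M cells, 50.9% of the rest and 86.2% of cells with lymphocyte markers, which had a median depth of 2659 UMIs and should lack it, so at that level it is background. No such lymphocyte cell reached 20 UMIs of any of these markers.

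The hormone transcripts sat in single cells. Of 5610 Gip UMIs in all G2/M cells, 3268 came from 1 cell, 1850 from another and 313 from 1 more, all with tags 1 and 2, and the last of these also held 468 of the 587 Sst UMIs. Gip and Sst encode the hormones of K and D cells. Of 2086 Cck UMIs, 1313 and 557 came from 2 cells with no tag pair assigned, and the second of these also held 197 of the 254 Gcg UMIs and 165 of the 303 Ghrl UMIs. These 5 cells had 27633 to 44047 UMIs, within the range of the group, and mitotic ranks of 0.85 to 0.98. Whether any of them is a droplet with more than 1 cell was not tested.

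The G2/M cells were also compared gene by gene with the histone-rich cells, chosen by the mirrored rule, and few genes passed. Of 9990 measured genes, 55 were higher in G2/M cells (0.551%) and 136 lower (1.36%). Cdc25b had the largest ratio not carried by a few cells, at 55.6 CPM in G2/M cells and 19.6 CPM in histone-rich cells (log2 1.15). Behind it came Cep89, a centriole appendage protein, at 64.5 CPM in G2/M cells and 24.3 CPM in histone-rich cells. Knstrn stood at 143 CPM in G2/M cells and 60.7 CPM in histone-rich cells, and Arl6ip1 at 902 CPM in G2/M cells and 424 CPM in histone-rich cells. Nek2 followed at 89.2 CPM in G2/M cells and 38.1 CPM in histone-rich cells, and Ccnb2 at 231 CPM in G2/M cells and 109 CPM in histone-rich cells. Chac2, an enzyme of glutathione breakdown, had 28.2 CPM in G2/M cells and 9.18 CPM in histone-rich cells, and Aspm at 107 CPM in G2/M cells and 49.2 CPM in histone-rich cells. Cck and Gcg stood above these in ratio, at 3.05 and 1.28, and came to -0.03 and -0.01 without the 5 highest cells of each group.

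Most genes of the mitotic machinery did not pass between these groups. Of 39 kinetochore genes, 1 (Knstrn) was higher and 1 (Cenpo) lower in G2/M cells, and 0 of 4 chromosomal passenger genes passed. Of the 35 genes of the spindle list, 6 were higher (Ckap2, Dlgap5, Aspm, Nde1, Tubb4b and the endoplasmic reticulum protein Arl6ip1) and none lower. Mitotic entry gave 4 higher (Ccnb2, Cdc25b, Cdc25c and Nek2) and 2 lower: Foxm1 had 21.2 CPM in G2/M cells and 37.8 CPM in histone-rich cells, and Mybl2 had 6.72 CPM in G2/M cells and 19.9 CPM in histone-rich cells. Fbxo5, which encodes the APC/C inhibitor Emi1, was lower at 30.001 CPM in G2/M cells, against 70.6 CPM in histone-rich cells, as was Esco2, the cohesin acetyltransferase of S phase, with a log2 ratio of -1.31.

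Replication genes were the largest block of lower genes against histone-rich cells among the lists. Of 38 DNA replication genes 33 were lower in G2/M cells and none higher, with a median of -0.90, beside 0.03 over all genes. Rrm2, a ribonucleotide reductase subunit, had the lowest ratio, at 17.6 CPM in G2/M cells and 76.5 CPM in histone-rich cells. Lig1, the DNA ligase of lagging strands, stood at 47.6 CPM in G2/M cells and 156 CPM in histone-rich cells, and Atad2, a chromatin ATPase, at 50.6 CPM in G2/M cells and 155 CPM in histone-rich cells. Pcna stood at 23.4 CPM in G2/M cells and 79.6 CPM in histone-rich cells, and Pola1, the catalytic subunit of polymerase alpha, at 20.2 CPM in G2/M cells and 65.5 CPM in histone-rich cells. Slfn9, a schlafen family gene, and Clspn, the claspin checkpoint mediator, had log2 ratios of -1.39 and -1.37. Histone genes outside the choice were lower in 15 of 23, Hist1h1e, a linker histone, with 146 CPM in G2/M cells and 474 CPM in histone-rich cells, and Hist2h2ac and Hist1h2ab with log2 ratios of -1.64 and -1.31.

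Across the 4 groups, the late genes were not all highest in the same one. In cells low in all 3, replication cells, histone-rich cells and G2/M cells, Aspm stood at 0.808, 4.91, 49.2 and 107 CPM, Plk1 at 2.02, 10.2, 72.8 and 109 CPM, and Birc5 at 10.2, 48.7, 369 and 420 CPM. Top2a stood at 12.4, 173, 794 and 578 CPM in the same order, and Aurkb at 0.673, 14.5, 108 and 92.5 CPM. Aspm, Nek2, Ccnb2 and Arl6ip1 thus had their highest level in G2/M cells with intervals apart from the histone-rich cells, while Top2a and Mki67 had theirs in histone-rich cells. These orders follow groups cut from the same rankings and are not time measurements.

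**Figure D4:**
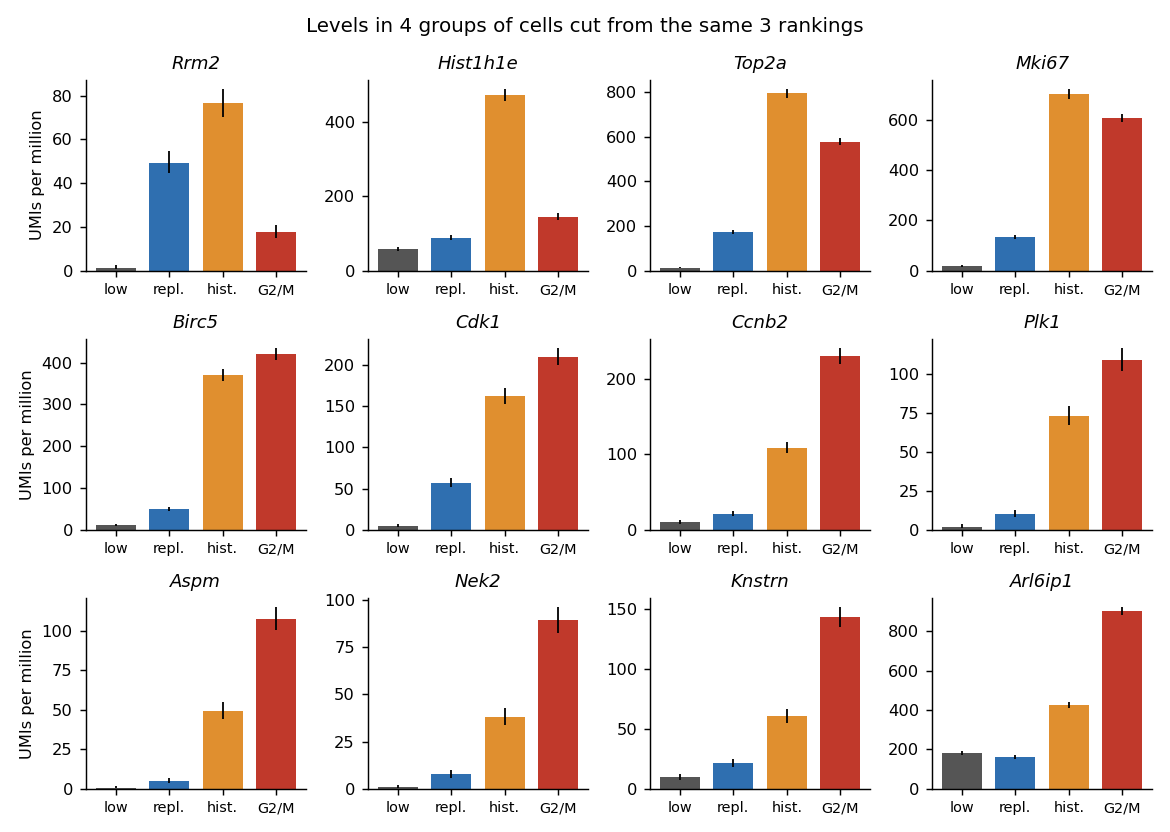
Bars give UMIs per 1000000 with exact 95% Poisson intervals in cells low in all 3, replication cells, histone-rich cells and G2/M cells, for 12 genes outside the choice. Rrm2, Hist1h1e, Top2a and Mki67 are highest in histone-rich cells, and Ccnb2, Plk1, Aspm, Nek2, Knstrn and Arl6ip1 in G2/M cells.

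Set against the cells low in all 3, the same genes stood out more widely. Of 10104 measured genes, 1594 were higher in G2/M cells (15.8%) and 688 lower (6.81%), and the median over all genes was 0.19. All 22 mitotic entry genes and 37 of 39 kinetochore genes were among the higher. Nusap1 stood at 234 CPM in G2/M cells and 2.02 CPM in the cells low in all 3, and Cdk1 at 211 CPM in G2/M cells and 4.71 CPM in cells low in all 3. Of the 38 replication genes, 32 were measured in this comparison and 29 of them were higher in G2/M cells, though 14 of 38 were lower against the rest. Pcna was close in both, at 23.4 CPM in G2/M cells and 20.7 CPM in cells low in all 3. Stem cell genes were higher in 8 of 18, and 19 of 20 enterocyte genes and 13 of 14 goblet genes were lower.

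Within the G2/M cells, those with little histone transcript differed from the others by few genes. The 68 cells with a histone rank under 0.50 had a median of 35337.5 UMIs and the 163 with a higher rank 31746 UMIs. Of 8869 measured genes, 31 were higher in the 68 cells (0.35%) and 77 lower (0.868%). Beside the histones, which the split follows, Fbxo5 stood at 11.5 CPM in the 68 cells and 38.0 CPM in the 163. Prc1 stood at 151 CPM in the 68 cells and 275 CPM in the 163, Top2a at 399.8 CPM in the 68 cells and 655 CPM in the 163, and Wee1, the kinase that holds Cdk1 inactive, at 23.9 CPM in the 68 cells and 52.8 CPM in the 163; these 3 genes were picked after their values were seen. Kinetochore genes were lower in 4 of 38 and higher in none, and mitotic entry genes lower in 1 of 22. The share of the 6 mitotic genes was close in both, with medians of 22.6 per 10000 in the 68 cells and 25.1 in the 163. Many of the highest ratios in the 68 cells, among them Sst and Chgb, lay in single cells and were 0.12 and -0.12 without the 5 highest of each group.

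By hashtag, G2/M cells made up 74 of 581 cells of tags 1 and 2 (12.7%, 10.1 to 15.7), 51 of 268 cells of tags 3 and 4 (19.0%, 14.5 to 24.2) and 106 of 786 cells with no pair assigned (13.5%, 11.2 to 16.1). The difference of tags 1 and 2 minus tags 3 and 4 was -6.29 percentage points (-12.1 to -0.875). When a pair had to exceed the other 10-fold, 71 of 540 cells of tags 1 and 2 and 5 of 39 cells of tags 3 and 4 were G2/M cells. The difference was then 0.33 points (-14.5 to 9.41), an interval that holds the -6.29. With each cell given the pair with more counts, it was -4.10 points (-7.60 to -0.622). At rank thresholds of 0.70 and 0.90 it was -4.60 (-10.8 to 1.21) and -3.42 points (-8.20 to 0.808). Among cells with Xist and no Y-linked UMI the shares were 11.3% of 389 in tags 1 and 2 and 19.2% of 261 in tags 3 and 4. The cells of tags 3 and 4 were deeper, with a median of 28781 UMIs, against 22321 in tags 1 and 2; its part in the difference was not tested.

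Inside the group, few genes passed by tag. Of 7684 measured genes, 60 were higher in the 74 G2/M cells of tags 1 and 2 (0.781%) and 23 lower (0.299%). Of the mitotic lists, 0 of 21 mitotic entry, 0 of 37 kinetochore, 0 of 34 spindle and 0 of 4 chromosomal passenger genes passed. At those shares over all genes, 0 in lists of this size does not set the mitotic genes apart. YFP, the reporter transcript, was higher at 157 CPM in tags 1 and 2 and 1.10 CPM in tags 3 and 4. The heat shock genes Hspa1a, at 122 CPM in tags 1 and 2 and 14.3 CPM in tags 3 and 4, and Hspa1b, at 56.7 CPM in tags 1 and 2 and 8.27 CPM in tags 3 and 4, were higher also without the 5 highest cells (log2 2.42 and 2.13). Gip, Sst and Chgb were higher at log2 ratios of 6.04, 4.30 and 1.90, but at 0.50, 0.16 and 0.52 without those cells. On the lower side St3gal4 (a sialyltransferase) stood at 48.4 CPM in tags 1 and 2 and 96.4 CPM in tags 3 and 4, and Rbp7 (a retinol-binding protein) at 65.7 CPM in tags 1 and 2 and 119.6 CPM in tags 3 and 4. Adh6a (an alcohol dehydrogenase), Sis (sucrase-isomaltase), Zg16 (a goblet granule lectin) and Lgals3 (galectin 3) had log2 ratios of -0.85 to -0.78, and Sis and Zg16 came to 0.28 and 0.11 without the 5 highest cells. Under the 10-fold tag rule the ratios of Rbp7, Sis and St3gal4 turned to 0.92, 0.83 and 0.062. Of 13 goblet genes measured, 6 were higher in G2/M cells of tags 1 and 2 and 1, Zg16, was lower, with a median of 0.55. Among G2/M cells with Xist and no Y-linked UMI, 44 in tags 1 and 2 and 50 in tags 3 and 4, the 6 named higher genes were again higher, and of the 6 named lower genes Adh6a, Sis, Zg16 and Lgals3 were again lower. There Rbp7 and St3gal4 did not pass, at -0.56 and -0.39.

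The YFP transcript, left by Cre activity at Chga in a cell or its ancestor, was present in cells in G2 and mitosis. In tags 1 and 2, 27 of 74 G2/M cells had 3 or more YFP UMIs (36.5%, 25.6 to 48.5), against 145 of 507 other cells (28.6%, 24.7 to 32.7). Among those with Xist and no Y-linked UMI it was 19 of 44 G2/M cells (43.2%, 28.3 to 59.0). Thinned to 5000 UMIs, 36.5% of the 74 G2/M cells and 26.8% of the other cells had at least 1. In tags 3 and 4 it was 0 of 51 G2/M cells, which allows a share of up to 6.98%, and 1 of 217 others, and among unassigned cells 1 of 106 G2/M cells and 5 of 680 others. Among other groups of tags 1 and 2 the share was 31.7% in histone-rich cells, 22.3% in replication cells and 45.8% in cells low in all 3, and the intervals of G2/M cells overlapped each of these. Chga stood at 21.7 CPM in G2/M cells of tags 1 and 2 and 40.5 CPM in the other cells of these tags, under the ceiling of 20 UMIs per cell that the choice sets. The tdTomato transcript stood at 6.86 CPM in these G2/M cells and 12.4 CPM in the other cells.

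**Figure D5:**
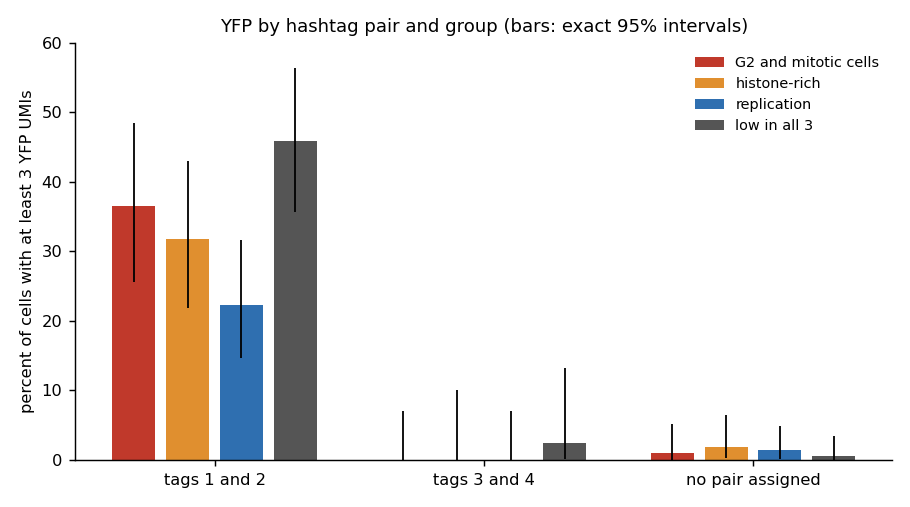
Bars give the percent of cells with at least 3 YFP UMIs, with exact 95% Clopper-Pearson intervals, by hashtag pair and group. In tags 1 and 2, G2/M cells stand at 36.5% and cells low in all 3 at 45.8%, and in the other columns no group exceeds 2.50%.

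Between G2/M cells with and without YFP, few genes passed. The 27 cells with at least 3 YFP UMIs were set against the 39 of the same tags with none, with medians of 32715 UMIs with YFP and 38288 UMIs without. Of 5857 measured genes, 55 were higher with YFP (0.939%) and 33 lower (0.563%). Of 17 mitotic entry, 27 kinetochore and 33 spindle genes measured, 0 passed. At those shares over all genes, 0 in lists of this size does not set the mitotic genes apart. Goblet genes were lower in 8 of 11 and higher in 1, with a median of -1.28, and without the 5 highest cells of each group the median was -0.61 and 3 were lower. Agr2, a disulfide isomerase of goblet cells, had 199 CPM with YFP and 711 CPM without, and Fcgbp, a mucus protein, had 102 CPM with YFP and 324 CPM without. Enteroendocrine genes were higher in 6 of 8 (median 1.87), led by Gip and Sst, and 0 of 8 passed without those cells. Of 14 stem cell genes 3 were higher with YFP, with a median of 0.18, and 0 without those cells.

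The same rule was also put to barcodes that the authors left out of their table. Of 1838 with at least 5000 UMIs and fewer than 20 Chga UMIs, 154 met it, and of 10822 genes measured 268 were higher in these 154 than in the other 1684 (2.48%) and 230 lower (2.13%). Of the 243 genes higher in G2/M cells over the rest, 239 were measured there, 176 were again higher (73.6%) and 238 had a ratio above 0. The exception was Sst, carried by a few G2/M cells, at 8.73 CPM in the 154 barcodes and 68.1 CPM in the others. Of the 196 lower genes, 192 were measured and 117 were again lower (60.9%). The choice used the same 17 genes in both sets, so the shared direction describes what goes with those transcripts.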

How the data were processed

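The authors deposited raw counts of UMIs per gene from 1 droplet 3′ expression library and 1 hashtag antibody library; per the submitters' processing notes, Cell Ranger and Seurat were run (no versions stated), and the matrix header gives software 3.1.0. The notes name a human build while the identifiers are those of mouse genes, so no coordinates were taken from these files. The 2335 cells of the authors' filtered table were used (1002 to 129719 UMIs); how they were filtered is not stated. The cells, the 37 gene lists and the comparisons were chosen with earlier results of these data known. The comparisons with cells low in all 3, by histone rank and by YFP within G2/M cells were added after the data were seen.

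Counts were summed per group and scaled to 1000000 UMIs (CPM), with exact 95% Poisson intervals. Ratios are log2 with 10 CPM added to both sums, so changes of low genes are understated. Genes needed 50 UMIs in both sums together, and higher or lower means past 1.5-fold with intervals apart. Intervals treat UMIs as independent, so counts held by a few cells look too precise, and ratios without the 5 highest cells of each group are given for some such genes and lists. A cell took a tag pair when its counts were at least 3 times the other's. Named genes are the 15 highest and lowest ratios (10 for histone-rich cells, 6 by tag) detected in 10% or more of the cells of the higher group, at most 3 of a near-identical family, and the most abundant genes of each list; where a gene was picked otherwise it is named for its role. Other differentiation, immune and stress lists stand under other observations. Promoters are RefSeq windows of build GRCm38.p6. The code for the ratios was run on simulated Poisson sums with known changes (Python 3.11.15, numpy 2.4.6, scipy 1.17.1, pandas 2.3.3, matplotlib 3.10.9). Those sums had no variation between cells, so that run cannot show how the intervals behave for counts held by a few cells.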

Additional observations from a re-analysis of the deposited data

Results flagged for a closer look

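Outside the cells the authors kept, 154 barcodes met the rule for G2/M cells, with their shares placed among the ranks of the kept cells. They are listed here because the signal lies in barcodes that the main comparisons did not use. They were 8.38% of the 1838 left-out barcodes with enough UMIs (exact 95% interval 7.15 to 9.74), against 14.1% of the kept cells. Their median depth was 7430.5 UMIs, against 7865.5 UMIs in the other left-out barcodes and 32122 UMIs in the kept G2/M cells. Mitochondrial genes took a median of 16.4% of their UMIs, against 20.6% in the other left-out barcodes and 7.01% in the kept G2/M cells. Only 39 of the 154 lay within the mitochondrial range of the kept cells, so most of them differ in quality from the G2/M cells above.

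Aspm stood at 86.8 CPM in the 154 barcodes and 19.6 CPM in the other left-out barcodes, Nek2 at 69.9 CPM in the 154 and 13.8 CPM in the others, and Ccnb2 at 154 CPM in the 154 and 39.2 CPM in the others. Mitotic entry genes were higher in 14 of 22 (median log2 ratio 1.02), kinetochore genes in 25 of 39 (0.74), spindle genes in 30 of 34 (1.30) and chromosomal passenger genes in 4 of 4 (1.31). Stem cell genes passed in 0 of 18 (0.16). Enterocyte genes were lower in 16 of 20 (-1.65), goblet genes in 10 of 14 (-0.94), and Paneth genes in 6 of 13 (-0.56).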

How the results depend on the processing

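The counts of genes moved with the pseudocount and with the cells compared against. Against the rest, 438 genes were higher and 689 lower with 1 CPM added, 96 and 62 with 50 CPM, and 1594 and 688 against the cells low in all 3, beside 243 and 196. Against histone-rich cells, 170 were higher and 265 lower with 1 CPM, and 12 and 38 with 50 CPM, beside 55 and 136; at a rank threshold of 0.90, 85 were higher. The median over the genes of 6 mitotic lists, 0.91, was 1.36 with 1 CPM and 0.40 with 50 CPM. G2/M cells were 18.04% of the cells at a rank of 0.70 and 9.17% at 0.90. The ratio of median UMIs was 1.67 within tags 1 and 2 and 1.28 within tags 3 and 4. By tag, the difference in share was 0.33 points under the 10-fold rule (-14.5 to 9.41). Within G2/M cells, the 60 genes higher in tags 1 and 2 became 20 with 50 CPM, 94 by the mean over cells, 17 among genes with at least 200 UMIs, 100 among all genes with a UMI and 98 under the 10-fold rule. The 23 lower became 35 with 1 CPM, 2 with 50 CPM, 37 by the mean over cells, 6 among genes with at least 200 UMIs, 6 without the 5 highest cells, 74 under the 10-fold rule and 4 when a cell took the pair with more counts. Ratios that changed sign were those of Cck (-1.21 at a rank of 0.70) and Gcg (-0.064 at 0.90) over histone-rich cells, Gcg over the rest (0.055 within tags 3 and 4) and, by tag, Rbp7, Sis and St3gal4 (0.92, 0.83 and 0.062 under the 10-fold rule), Sis (0.14 by the pair with more counts) and Sis and Zg16 (0.28 and 0.11 without the 5 highest cells). Cck and Gcg rest on a few cells, and the cause of the other changes was not tested. The alternatives without the 5 highest cells, against the cells low in all 3, without defensin-rich cells and within the Xist cells were chosen after seeing the data. No paired analysis was possible because there is 1 library and no replicate. Depth limits genes under about 10 CPM, where the added 10 CPM sets the ratio.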

Other observations

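Other lists of genes, in G2/M cells over the rest, are set beside the median of 0.03 over all measured genes. Of 18 G1 cyclins and Cdk inhibitors 1 was higher (Cdkn2d, a Cdk4 inhibitor) and 2 lower (Cdkn1a and Cdkn1c), with a median log2 ratio of -0.06. Of 12 p53 target genes 1 was higher (Gtse1, which binds microtubules and p53) and 1 lower (Cdkn1a), and of 19 DNA repair genes 2 were lower (Chek1 and Atad5). None of 15 Wnt target genes (median -0.09) and none of 13 Notch pathway genes (0.05) passed, and 1 of 13 early secretory genes was lower (-0.27). All 3 measured Reg3 genes, antimicrobial lectins of the mature epithelium, were lower: Reg3b stood at 897 CPM in G2/M cells and 1721 CPM in the rest, and Reg3g at 711 CPM in G2/M cells and 1164 CPM in the rest. Tuft cell genes were lower in 3 of 10 (-0.48).

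No gene passed among 16 immediate early genes (-0.26), 11 heat shock genes (-0.02), 7 MHC class II genes (-0.09), 5 nuclear long noncoding RNAs (0.01), 38 proteasome genes (0.14) and 3 reporter transcripts (-0.52). Markers of other cells were at or near 0 CPM: 2 of 12 T cell genes were measured and 0 passed, 6 of 11 B cell genes with 1 lower, 5 of 10 myeloid genes with 1 lower, and 0 of 10 stromal genes. Summed, the T cell genes made 1.81 CPM in G2/M cells and 8.36 CPM in the rest, the B cell genes 9.31 CPM in G2/M cells and 27.6 CPM in the rest, and the myeloid genes 9.18 CPM in G2/M cells and 30.9 CPM in the rest.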
